A study of Mus musculus with 6 samples.

Results

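The 37 genes described here encode enzymes and regulators of sterol and fatty acid synthesis, taken by symbol from a fixed list among the 23282 gene rows measured in every library. All 37 were found, and the list does not hold every enzyme of these pathways. The list holds 5 regulators of the SREBP pathway, 7 enzymes of the mevalonate section, 11 enzymes of the section from squalene to cholesterol, 1 sterol carrier, 6 enzymes that make fatty acids and their precursors, and 7 desaturases and elongases. The rule is membership in the pathways and uses no measured value. RNA was measured by QuantSeq, which reads the 3′ ends of transcripts, in CD4 T cells from spleen and lymph nodes of C57BL/6 mice. WT cells came from Prkaa1 fl/fl mice without Cre (CD4Cre-negative), and AMPK KO cells from Prkaa1 fl/fl mice that carried CD4Cre, so both groups had the floxed allele of Prkaa1, which encodes the AMPKα1 subunit. There were 3 samples per group, all rested for 1 h and stimulated with anti-CD3 and anti-CD28 antibodies at 2 µg/mL. The stimulation time was 24 h in the sample labels and 6 h in the published methods. The published methods give females of 6 to 8 weeks as the mice used in general, and the labels of these samples give neither age nor sex. Reads of Y-linked genes were present in every library, as given below, which differs from the stated sex. CD4Cre is active in every cell that has passed through the CD4-expressing stage of the thymus, CD8 T cells included. The publication calls the samples biologically independent, and the labels do not say whether each was a separate mouse, so the p values measure the spread between these samples only.

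Sterol synthesis is controlled by the SREBP transcription factors, which are held in the endoplasmic reticulum by SCAP and INSIG proteins when sterols are plentiful and move to the nucleus after cleavage when sterols are scarce. AMPK is a kinase that responds to low cellular energy, and it phosphorylates and inhibits the acetyl-CoA carboxylases, which make the malonyl-CoA from which fatty acids are built. T cells raise lipid synthesis when they are activated and start to grow, because new membranes need cholesterol and fatty acids. The comparison addressed here was whether transcripts of these pathways differed between stimulated AMPK KO and WT CD4 T cells.

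The shared regulatory sequence of the list was examined first, because SREBP targets carry a sterol regulatory element near sites for NF-Y and Sp1 in their promoters. RefSeq promoter windows on GRCm38.p6, each of 300 bases from 250 before to 50 after an annotated start, were matched for 30 of the 37 genes, with 40 windows in all. The 4 windows that follow are those of Hmgcs1, the one gene among the 30 with a window that matched the sterol regulatory element core, of Sc5d, the one transcript that passed the test, and of Ebp and Elovl5, shown as 2 examples among the genes whose groups did not overlap. Each is written 5′ to 3′ in the direction of the gene, and capitals mark TCACNCCAC or CCAAT on either strand (CCAAT reads ATTGG on the other strand). The windows lie at chr13:119690101-119690400 (plus strand) for Hmgcs1, chr9:42264251-42264550 (minus strand) for Sc5d, chrX:8193463-8193762 (minus strand) for Ebp and chr9:77917115-77917414 (plus strand) for Elovl5.
Hmgcs1: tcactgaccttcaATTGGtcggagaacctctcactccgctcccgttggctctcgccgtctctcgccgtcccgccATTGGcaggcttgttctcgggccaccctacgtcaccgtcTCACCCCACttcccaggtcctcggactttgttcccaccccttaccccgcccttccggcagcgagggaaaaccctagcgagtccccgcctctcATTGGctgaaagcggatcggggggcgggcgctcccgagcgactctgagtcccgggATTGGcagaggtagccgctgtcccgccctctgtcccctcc
Sc5d: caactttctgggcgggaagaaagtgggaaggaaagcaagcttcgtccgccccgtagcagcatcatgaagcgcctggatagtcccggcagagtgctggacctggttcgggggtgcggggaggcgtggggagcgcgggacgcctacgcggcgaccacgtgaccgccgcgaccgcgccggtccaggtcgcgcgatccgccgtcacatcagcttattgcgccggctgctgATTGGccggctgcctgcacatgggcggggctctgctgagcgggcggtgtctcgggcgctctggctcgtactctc
Ebp: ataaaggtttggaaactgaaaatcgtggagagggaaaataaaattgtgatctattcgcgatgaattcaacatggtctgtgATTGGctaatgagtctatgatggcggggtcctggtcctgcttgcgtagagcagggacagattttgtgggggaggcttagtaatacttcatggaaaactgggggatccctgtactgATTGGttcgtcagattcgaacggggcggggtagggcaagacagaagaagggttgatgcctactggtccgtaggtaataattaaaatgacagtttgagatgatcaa
Elovl5: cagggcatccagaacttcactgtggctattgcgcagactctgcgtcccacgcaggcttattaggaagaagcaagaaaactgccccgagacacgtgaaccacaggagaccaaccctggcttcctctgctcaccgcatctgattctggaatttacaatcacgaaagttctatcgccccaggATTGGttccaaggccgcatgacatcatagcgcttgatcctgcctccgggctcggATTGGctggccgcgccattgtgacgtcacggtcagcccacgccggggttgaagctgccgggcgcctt

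The core TCACNCCAC, in either orientation, was found in 1 of the 40 windows (2.5%) and in 1.24% of all 32851 windows of the same length. Only this exact form was searched, so elements of another form or outside the windows would be missed. No window was matched for Sqle, Fdps, Fdft1, Stard4, Scd1, Scd2 and Fads1. In Hmgcs1 its first base lay at position -137 from the start site. The NF-Y box CCAAT occurred in 26 of the 40 windows (65%), from 25 genes of the list, against 37.4% of all windows. The Sp1 box GGGCGG occurred in 29 of the 40 (72.5%), from 24 genes, against 35.7% of all windows. The E-box CACGTG, which SREBP1 can also bind, occurred in 7 of the 40 (17.5%), from Dhcr7, Elovl5, Hsd17b7, Insig1, Sc5d and Scap, against 7.15% of all windows. Several genes have more than 1 window and windows of 1 gene can share bases, so these shares are descriptions with no test.

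Reads on genes numbered 9575096 to 11185360 per library. The 45S ribosomal precursor Rn45s took 20.7% to 24.9% of them in WT and 8.48% to 10.8% in AMPK KO, so that other genes held 7194291 to 8064287 reads per WT library and 9623714 to 10025160 per AMPK KO library. Prkaa1 differed by -0.43 on the log2 scale (SE 0.25, n = 3 per group, limma adjusted p = 0.357) with overlapping groups, and whether its 3′ reads lie outside the deleted part is not given in the sources used here, so it does not check the labels. Its paralog Prkaa2 had 0 reads in each library. T cell markers were present, with Cd3e at 7.35 in WT and 6.69 in AMPK KO on the log2 scale. Cd4 was at 6.69 in WT and 6.33 in AMPK KO, below Cd8b1 at 7.45 and 7.83. Cd8a was at 6.68 in WT and 7.02 in AMPK KO. Erythroid markers summed to 3988.4 to 4594.5 CPM in WT and 2886.3 to 5567.1 CPM in AMPK KO. Macrophage markers were present too: all 14 tested were higher in AMPK KO by their mean, 8 of them past the test (against 5.65% of all genes tested), none of the 15 was at 0 in all libraries, and their summed level was 527 to 596 CPM in WT and 981 to 1794 CPM in AMPK KO. Of the 14 T cell markers, 12 were lower by their mean and 4 passed the test (Cd3g, Cd3e, Cd28 and Bcl11b), with a summed level of 3723 to 3950 CPM in WT and 2866 to 3314 CPM in AMPK KO. Xist had 8 to 32 reads per WT library and 1998 to 2876 per AMPK KO library, and the Y-linked Ddx3y had 3158 to 3462 and 1296 to 1840, so sex-linked transcripts differed along with the genotype, and the 2 cannot be told apart. Reads of Ddx3y were present in every library, as were those of the Y-linked Uty, Kdm5d and Eif2s3y, although the published methods name females. Every AMPK KO library thus held many reads of both Xist and Y-linked genes, and the WT libraries held Y-linked reads with few of Xist. Whether the AMPK KO samples joined cells of male and female mice was not tested. The part of these differences in any result on the lipid genes was not tested. In bulk RNA, fewer cells of a type and less RNA per cell cannot be told apart.

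Between AMPK KO and WT, 1 of the transcripts of sterol and fatty acid synthesis changed. Values are log2(normalized CPM + 1), and 33 of the 37 genes reached the mean of 1 across libraries that was required for a test. Sc5d, which encodes lathosterol oxidase, an enzyme near the end of cholesterol synthesis, rose in AMPK KO. It was the 1 gene of 33 (3.03%) with a limma adjusted p under 0.05, against 5.65% of the 11279 genes tested (637 genes, 287 higher and 350 lower). Scaling to reads outside Rn45s gave 235 genes higher and 487 lower in the whole table, and leaving out 1 library gave 127 to 1243 genes in all. An unadjusted limma p under 0.05 was found for 8 of the 33 (24.2%), against 21.3% of all genes tested. The libraries of the 2 groups did not overlap for 9 of the 33 (27.3%), against 25.6% of all genes. Of these 9, AMPK KO was higher for 6 (18.2% of the 33, against 11.6% of all genes) and lower for 3 (9.09%, against 14.0%). None of these differences in share was tested.

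The log2 fold changes, given throughout as AMPK KO minus WT, ran from -1.08 for Nsdhl to 1.10 for Sc5d in this fit. The ends of this range depended on the setting, since with voom on recovered reads Idi1 (1.69) and Lss (1.66) lay above Sc5d (1.19), and without the first AMPK KO library Stard4 (-0.85) lay below Nsdhl (-0.67). The median of the 33 was 0.14, beside 0.015 for all genes tested, and the median size regardless of sign was 0.28, beside 0.31. For the 23 sterol genes the median was 0.15, with 16 means higher and 7 lower. For the 10 fatty acid genes it was 0.04, with 5 higher and 5 lower. Without the second WT library the sterol median was 0.084, and the fatty acid median ran from -0.16 without the second to 0.18 without the third AMPK KO library, so its sign depended on single libraries. These genes share samples and regulators and are not replicates of each other, so the medians carry no test.

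**Figure D1:**
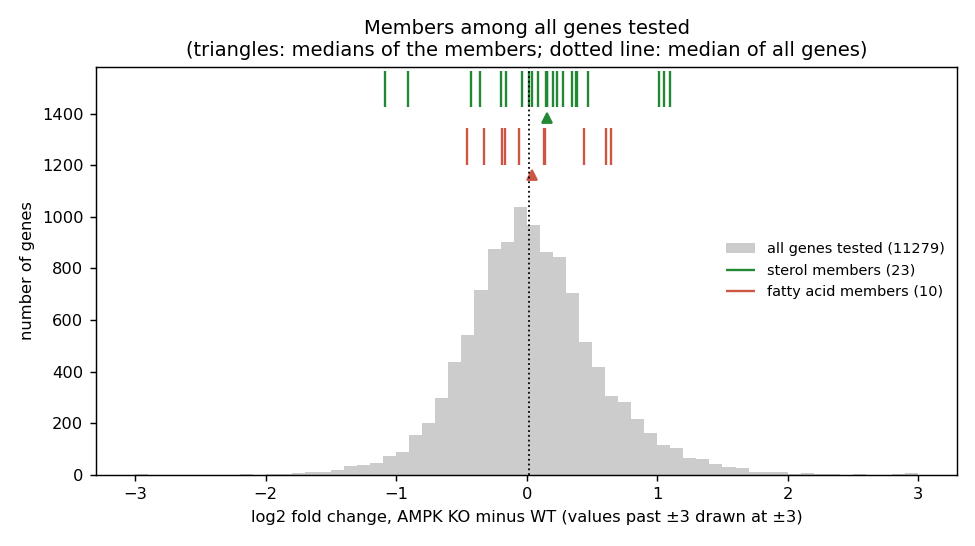
Histogram of the log2 fold change (AMPK KO minus WT, horizontal axis) of the 11279 genes tested, with the number of genes on the vertical axis, short vertical lines for the 23 sterol and 10 fatty acid genes, triangles at their medians and a dotted line at the median of all genes. The lipid genes spread across the middle of the histogram, and with all 6 libraries their medians are 0.15 and 0.04, beside 0.015 for all genes.

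None of the 5 regulators passed the test. For Srebf2, which encodes the main activator of cholesterol synthesis genes, the WT libraries 1 to 3 were at 5.62, 6.03 and 5.75 and the AMPK KO libraries at 6.05, 5.55 and 6.05. Its groups overlapped, with a log2 fold change of 0.09 (95% interval -0.33 to 0.50, limma adjusted p = 0.845). Srebf1, which encodes the SREBP most tied to fatty acid synthesis, was at 3.23, 3.90 and 4.15 in WT and 4.25, 3.17 and 4.31 in AMPK KO. The lowest library of all 6 was the second AMPK KO library, and the fold change was 0.15 on the log2 scale (-0.61 to 0.91, limma adjusted p = 0.847). Both intervals hold 0, and that of Srebf1 is the wider of the 2.

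Scap, the escort that carries SREBP to the Golgi, was at 5.12, 4.61 and 4.74 in WT and 4.81, 4.88 and 4.83 in AMPK KO, so that its AMPK KO values lay within the WT range. Its log2 fold change was 0.02 (-0.45 to 0.48, limma adjusted p = 0.973). The INSIG proteins hold SCAP back in the endoplasmic reticulum, and INSIG1 is itself induced by SREBP. Insig1 was at 7.46, 7.05 and 7.10 in WT and 6.96, 7.33 and 6.74 in AMPK KO, a difference of -0.20 (-0.57 to 0.18, limma adjusted p = 0.564) that was -0.35 without the second and -0.062 without the third AMPK KO library. Insig2 was at 3.53, 2.74 and 3.28 in WT and 3.48, 3.21 and 3.46 in AMPK KO, a difference of 0.20 (-0.49 to 0.89, limma adjusted p = 0.771). Both overlapped between the groups. The direction of Srebf1, Srebf2, Scap and Insig2 depended on single libraries: without one library, their differences ran from -0.11 to 0.52, from -0.0043 to 0.25, from -0.09 to 0.17 and from -0.02 to 0.37.

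The mevalonate enzymes turn acetyl-CoA into the isoprenoid units from which squalene is made. None of the 7 on the list passed the test, 3 had a higher and 4 a lower mean in AMPK KO, and the median log2 fold change was -0.03. Hmgcs1 (chr13:119690379-119708260, plus strand), which encodes hydroxymethylglutaryl-CoA synthase, was at 5.93, 6.01 and 5.86 in WT and 5.45, 5.62 and 5.45 in AMPK KO. Each WT library was above each AMPK KO library. The difference was -0.43 (SE 0.17, n = 3 per group, limma adjusted p = 0.163), and without any one library it stayed between -0.49 and -0.39.

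Idi1 (chr13:8885501-8892451, plus strand) encodes the isomerase that balances the isoprenoid units. It was at 0.52, 1.38 and 0.93 in WT and 1.92, 2.21 and 1.85 in AMPK KO, from 4 to 16 reads per WT library and 31 to 39 per AMPK KO library. The groups did not overlap, and the log2 fold change of 1.05 (SE 0.43, n = 3 per group, limma adjusted p = 0.172) had an interval of 0.14 to 1.97. At so few reads, the added 1 in the log2 scale lowers the fold: the value was 1.51 with a pseudocount of 0.25 and 1.69 with voom on the recovered reads, with limma adjusted p values of 0.196 and 0.247. The gene of the near paralog Idi2 had 0 or 1 read in each library.

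The other 5 mevalonate genes overlapped between the groups. Acat2, the acetoacetyl-CoA thiolase, ranged over all 6 libraries from 6.51 to 7.25. Mvk and Pmvk, the kinases of mevalonate and phosphomevalonate, ranged from 2.20 to 3.92 and from 3.37 to 4.30, with log2 fold changes of 0.47 and -0.03. Mvd, the decarboxylase that follows, ranged from 3.23 to 4.38, with a difference of -0.36. Fdps, which makes farnesyl diphosphate, ranged from 2.82 to 3.56, with a difference of -0.16. The sign of each of these 5 genes differed between the 2 sides of the library division described with Sc5d, as with Mvk at -0.40 and 1.49. The lowest limma adjusted p among the 7 was 0.163, that of Hmgcs1.

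In the section from squalene to cholesterol, 9 of the 10 genes tested had a higher mean in AMPK KO and 1 a lower one, with a median log2 fold change of 0.31, where 5777 of all 11279 genes tested had a higher mean. Of these 9, Cyp51 (-0.0085) and Hsd17b7 (-0.22) were lower in AMPK KO within one side of the division of the libraries that is described with Sc5d. Only Sc5d passed the test. Sc5d (chr9:42251595-42264256, minus strand) was at 3.23, 3.25 and 3.65 in WT and 4.55, 4.13 and 4.72 in AMPK KO, from 77 to 102 and from 178 to 302 reads. The lowest AMPK KO library stood above the highest WT library. The means were 3.37 ± 0.24 and 4.47 ± 0.30 (SD, n = 3 per group), a log2 fold change of 1.10 (SE 0.28, 95% interval 0.50 to 1.69) and a 2.14-fold difference on the log2(value + 1) scale, with a limma adjusted p of 0.0347. The exact two-sided permutation test gave p = 0.1, the smallest p possible with 3 libraries per group, as it did for each of the 9 genes whose groups did not overlap.

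The Sc5d call depended on the libraries and on the fit. It was lost with no filter on low values (limma adjusted p = 0.0798) and with a block for the replicate number (limma adjusted p = 0.123). It was also lost when any 1 library other than the second AMPK KO library was left out. Over the 6 fits with 1 library left out, log2 fold changes were 0.97 to 1.26 and limma adjusted p values 0.0118 to 0.153. The libraries also divided within the groups. The first principal component of their deviations from the group means held 42.5% of the variance and set WT 1, WT 3 and AMPK KO 2 against WT 2, AMPK KO 1 and AMPK KO 3. Sc5d was higher in AMPK KO by 0.70 within the former and by 1.39 within the latter. Because its groups did not overlap, this sign could not differ between the sides or when 1 library was left out. The same holds for every gene without overlap.

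**Figure D2:**
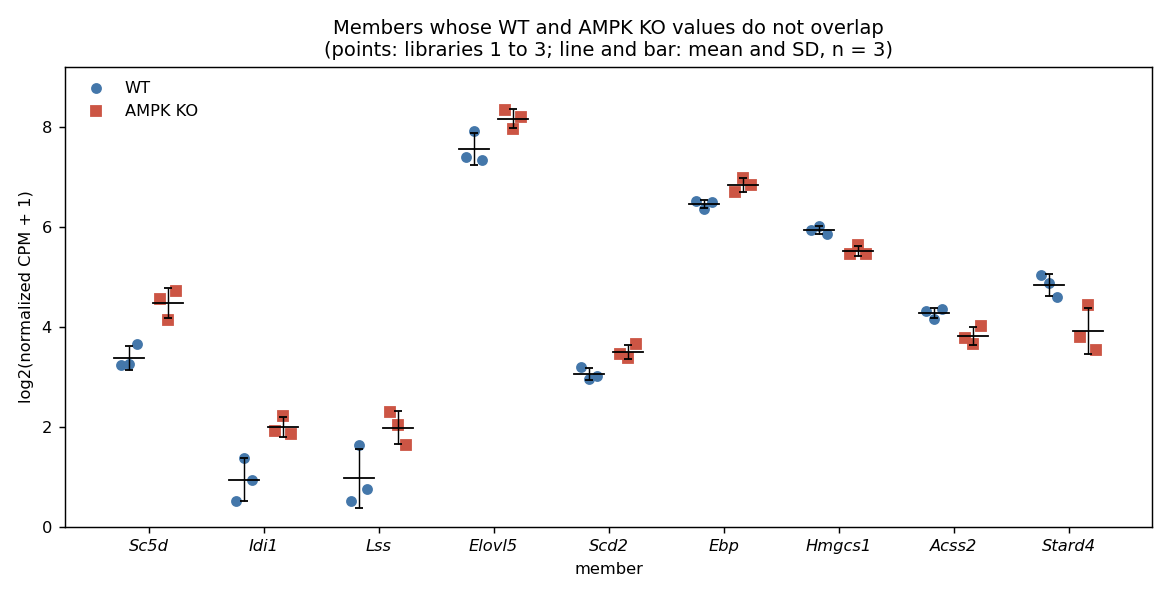
Log2(normalized CPM + 1), vertical axis, of the 9 genes whose WT and AMPK KO libraries did not overlap, with WT libraries as circles, AMPK KO libraries as squares and lines with bars for the mean and SD (n = 3 per group). The 6 genes on the left and centre lie higher in AMPK KO, with Sc5d the 1 that passed the limma test, and Hmgcs1, Acss2 and Stard4 on the right lie lower.

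Lss and Ebp also had groups that did not overlap. Lss (chr10:76531588-76557138, plus strand), which encodes the synthase that closes the sterol rings to form lanosterol, was at 0.52, 1.63 and 0.75 in WT and 2.29, 2.03 and 1.63 in AMPK KO. The groups met almost exactly, since the highest WT and the lowest AMPK KO library both rounded to 1.63, and the reads numbered only 4 to 21 and 25 to 46. The difference was 1.02 (SE 0.45, n = 3 per group, limma adjusted p = 0.212), and it was 1.48 with a pseudocount of 0.25 and 1.66 with voom on the recovered reads. Ebp (chrX:8185329-8193512, minus strand), which encodes the sterol isomerase upstream of Sc5d in the pathway, was at 6.51, 6.35 and 6.49 in WT and 6.70, 6.96 and 6.83 in AMPK KO. Its difference of 0.38 (SE 0.15, n = 3 per group, limma adjusted p = 0.162) was small, on 784 to 831 reads per WT library and 1221 to 1339 per AMPK KO library, and was 0.47 and 0.41 within the 2 sides of the division.

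Nsdhl, which encodes a dehydrogenase that removes methyl groups from the sterol ring, had the lowest fold change of the list with all 6 libraries and is given here because of that value. It was at 3.94, 3.60 and 2.61 in WT and 1.47, 2.95 and 2.47 in AMPK KO, from 21 to 132 reads. The groups overlapped, and the difference of -1.08 (SE 0.45, n = 3 per group, limma adjusted p = 0.178) was -0.33 within one side of the division and -1.63 within the other. Nsdhl and Ebp are the 2 genes of the list on chromosome X, the chromosome from which Xist is expressed, and their differences had opposite signs.

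The 6 remaining tested genes of this section overlapped between the groups, and the mean of each was higher in AMPK KO. Fdft1, the squalene synthase, differed by 0.39, Sqle, the squalene epoxidase, by 0.28, and Dhcr7, the last reductase of the pathway, by 0.34 on the log2 scale. Within the 2 sides of the division, Fdft1 differed by 0.49 and 0.068 and Dhcr7 by 0.40 and 0.80. Cyp51 and Msmo1, which take methyl groups off lanosterol and its products, differed by 0.23 and 0.16, and the ketoreductase Hsd17b7 by 0.15. The limma adjusted p values of these 6 ran from 0.505 to 0.845. The sterol reductase gene Tm7sf2 was not tested, with 0 reads in 2 libraries and at most 14 in any.

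**Figure D3:**
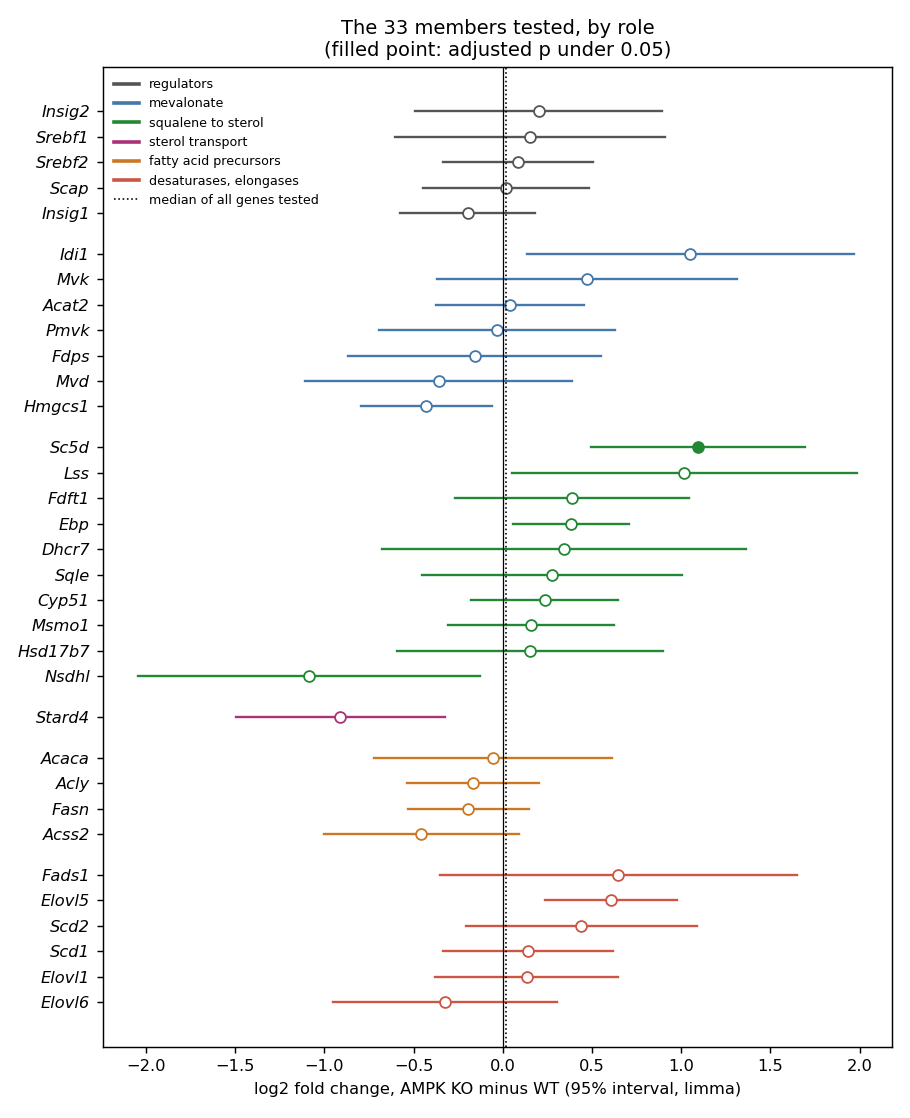
Log2 fold change, AMPK KO minus WT (horizontal axis), of the 33 genes tested, grouped by role, with 95% limma intervals, a solid line at 0, a dotted line at the median of all genes tested and a filled point for an adjusted p under 0.05. Sc5d carries the only filled point, and 9 of the 10 points of the section from squalene to sterol lie above 0, where 5777 of all 11279 genes tested had a higher mean.

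Stard4 encodes a cytosolic carrier that moves sterols between membranes and is induced by SREBP2. It was at 5.03, 4.87 and 4.59 in WT and 3.80, 4.42 and 3.54 in AMPK KO, with 205 to 291 and 126 to 220 reads. All AMPK KO libraries were lower than all WT libraries, and the second AMPK KO library was the nearest to WT. The difference was -0.91 (SE 0.27, n = 3 per group, limma adjusted p = 0.0647), and without that library it was -1.16 and passed the test (limma adjusted p = 0.00913). Without any other 1 library it ran from -1.03 to -0.72 and did not pass (limma adjusted p = 0.109 to 0.252). Within the 2 sides of the division it was -0.39 and -1.21.

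Among the genes that supply and build fatty acids, all 4 tested had a lower mean in AMPK KO, and none passed the test. Acaca, which encodes the cytosolic acetyl-CoA carboxylase that AMPK phosphorylates, was at 4.30, 3.89 and 3.57 in WT and 4.12, 4.13 and 3.33 in AMPK KO. The groups overlapped almost completely, with a difference of -0.06 (95% interval -0.72 to 0.61, limma adjusted p = 0.945) that ran from -0.23 to 0.21 when single libraries were left out. Its paralog Acacb, which is tied to the control of fatty acid oxidation, was at 1.39, 0.58 and 0.15 in WT and 1.38, 0.72 and 1.18 in AMPK KO, on 1 to 19 reads, and was below the level tested. These are transcript levels, and the phosphorylation of the carboxylases was not measured in these data.

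Fasn, the fatty acid synthase, was at 6.44, 6.26 and 6.55 in WT and 6.29, 6.19 and 6.20 in AMPK KO, a difference of -0.19 (-0.53 to 0.15, limma adjusted p = 0.522) that was -0.13 without the third WT library. Acly, which cleaves citrate into cytosolic acetyl-CoA, was at 6.10, 6.02 and 6.44 in WT and 6.05, 6.10 and 5.91 in AMPK KO, a difference of -0.17 (-0.54 to 0.20, limma adjusted p = 0.623) that was -0.041 without the third WT library and -0.25 without the second. Both overlapped between the groups. Acss2, which makes acetyl-CoA from acetate, was the gene of this section without overlap, at 4.31, 4.16 and 4.35 in WT and 3.77, 3.66 and 4.02 in AMPK KO. It differed by -0.46 (SE 0.26, n = 3 per group, limma adjusted p = 0.325). Me1, the cytosolic malic enzyme that supplies NADPH, had 0 reads in 4 libraries and at most 5 in any.

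The desaturases and elongases shape the chains that Fasn makes. Of the 6 tested, 5 had a higher mean in AMPK KO and 1 a lower one, with a median log2 fold change of 0.29, and none passed the test. Elovl5 (chr9:77917364-77984519, plus strand), which lengthens polyunsaturated fatty acids, was at 7.39, 7.92 and 7.34 in WT and 8.33, 7.95 and 8.20 in AMPK KO, on 1426 to 2415 and 2639 to 3794 reads. The second libraries of the groups, at 7.92 and 7.95, nearly touched, and the other libraries were well apart. The means were 7.55 ± 0.32 and 8.16 ± 0.19 (SD, n = 3 per group), a difference of 0.61 (SE 0.17, 95% interval 0.24 to 0.97) with a limma adjusted p of 0.0529, just above the threshold of 0.05. Without the second WT library or without the second AMPK KO library, Elovl5 passed the test at differences of 0.79 and 0.71, and within the 2 sides of the division it differed by 0.58 and 0.34.

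Scd2, a stearoyl-CoA desaturase that puts the first double bond into saturated chains, was at 3.19, 2.94 and 3.02 in WT and 3.45, 3.38 and 3.65 in AMPK KO. The groups did not overlap, and the difference of 0.44 (SE 0.30, n = 3 per group) had a limma adjusted p of 0.435. Its paralog Scd1 overlapped between the groups, from 4.81 to 5.62 over all libraries, with a difference of 0.14. How reads that match more than 1 place were treated is not given in the sources used here, so the split between these paralogs is uncertain. Fads1, a desaturase of polyunsaturated chains, ranged from 0.98 to 2.68 with a difference of 0.65, on 9 to 52 reads. Elovl1, an elongase of very long chains, ranged from 5.52 to 6.59 with a difference of 0.13. Both overlapped between the groups. The Elovl1 difference rested on the second AMPK KO library at 6.59, since AMPK KO libraries 1 and 3, at 5.82 and 5.66, lay below the WT mean of 5.89. Elovl6, which elongates the product of Fasn, was the gene of this section with a lower mean, from 3.33 to 4.17 with a difference of -0.33. Fads2, another desaturase of polyunsaturated chains, had 0 reads in 4 libraries and at most 9 in any. For Fads2, Me1 and Tm7sf2, a library without a read allows up to 3 reads, which is 0.252 to 0.339 CPM by library, and this limit covers counting error only.

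**Figure D4:**
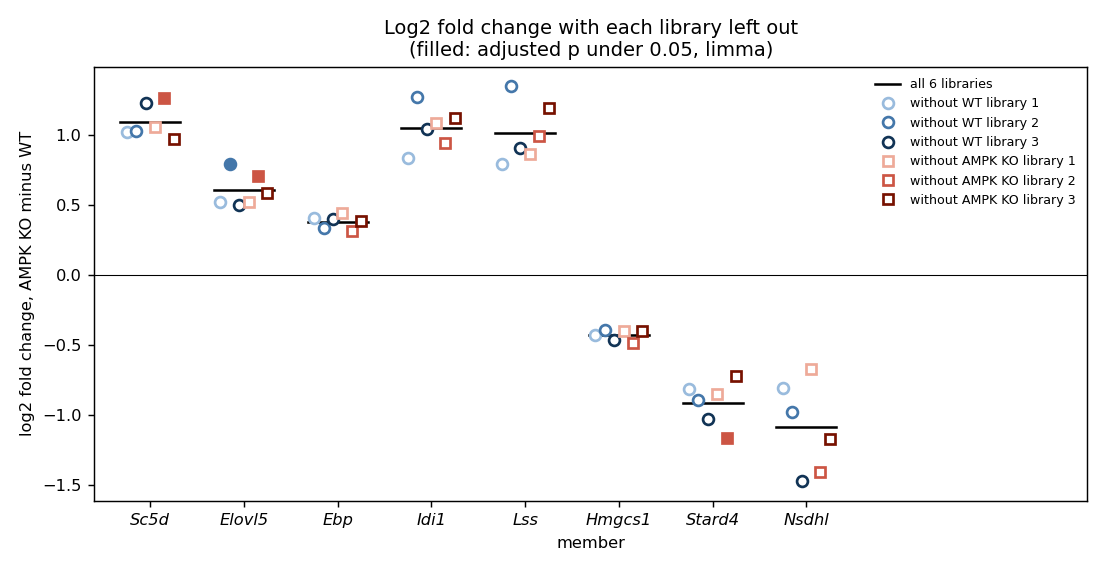
Log2 fold change, AMPK KO minus WT (vertical axis), of the 8 genes with an unadjusted limma p under 0.05, with a line for all 6 libraries, circles where 1 WT library and squares where 1 AMPK KO library was left out, and filled symbols for a limma adjusted p under 0.05. Each gene keeps its sign, which for all but Nsdhl could not change here because the groups did not overlap. Among the fits with 1 library left out, Sc5d and Stard4 passed the test without the second AMPK KO library. Elovl5 passed without that library or the second WT library.

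Other genes of the pathways, from lists that were also chosen with results of these data known, gave the following counts. Of 13 other sterol pathway genes tested, 0 passed the limma test and 2 had an unadjusted p under 0.05 (Ggps1 and Mbtps1), with a median log2 fold change of -0.20, where 5.65% of all genes tested passed and 21.3% had an unadjusted p under 0.05. Mbtps1 encodes the protease that first cleaves SREBP in the Golgi, and its difference was -0.42 (limma adjusted p = 0.0957). Of 12 other fatty acid synthesis genes tested, 0 passed the limma test and 1 had an unadjusted p under 0.05 (Slc25a1, the mitochondrial citrate carrier, with a difference of 0.88 and a limma adjusted p of 0.18), with a median of 0.34. Of 8 genes of LXR and sterol efflux, which respond to sterol excess, 1 passed: Nr1h3, the gene of LXRα, which macrophages express, was at 3.62, 2.23 and 2.73 in WT and 4.11, 4.49 and 4.09 in AMPK KO. It rose by 1.37 (SE 0.36, n = 3 per group, limma adjusted p = 0.037). The efflux transporter genes Abca1 and Abcg1 differed by -0.18 and 0.72, both with overlapping groups. Within the 2 sides of the division Abcg1 differed by 0.39 and 0.25.

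Genes of T cell activation moved in both directions beside the lipid genes. Of 18 tested, 4 rose (Cd44, Tfrc, Tnfrsf9 and Ifng) and 2 fell (Cd40lg and Egr1) with a limma adjusted p under 0.05, against 5.65% of all genes tested that passed in either direction. Ifng, the effector cytokine, rose by 1.70, and Cd40lg, the ligand by which CD4 T cells help B cells, fell by 1.76 on the log2 scale. Among markers of further cell types, 2 of 9 neutrophil markers fell (Ngp and Ltf), 1 of 9 B cell and plasma cell markers rose (Jchain, by 2.60), and 0 of 6 erythroid and 0 of 2 CD8 T cell markers passed the limma test, with 0 and 2 at an unadjusted p under 0.05. Beside these counts, 5.65% of all genes tested passed and 21.3% had an unadjusted p under 0.05. Their part in the lipid gene values was not tested.

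The 3′ ends of some of the 37 genes overlap other annotated genes on mm10. In the last 1000 bases of the gene, 7 of them meet a gene on the opposite strand (Srebf1, Mvd, Fdft1, Lss, Cyp51, Acss2 and Elovl1) and 1, Fdps, a gene on the same strand. Whether the counting used strand is not given in the sources used here, so reads of these neighbours cannot be told apart from those of the listed genes. Sc5d, Elovl5, Stard4 and Ebp had no such overlap.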

How the data were processed

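RNA of 3 WT and 3 AMPK KO samples was measured as QuantSeq 3′ libraries. The authors deposited log2 values per gene, made as log2(x + 1) of reads normalized by TMM and CPM, and the submitters' processing notes name Bowtie2, bedtools and mm10. The deposited values match whole reads (100% of those up to 100 reads, within 0.1), from which reads and depths were recovered. Groups came from the sample labels. Genes with a mean of at least 1 were tested with limma 3.58.1 (lmFit, eBayes with trend) in R 4.3.3, two-sided, genotype only, with Benjamini-Hochberg adjustment over all 11279 genes and a threshold of 0.05. The fit was tested on simulated data. Single genes also had an exact permutation test.

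The 37 genes, the other lists and the tests were chosen with earlier results of these data known. Values per library are given for genes that passed the test, genes without overlap between groups, the 5 regulators, Acaca, Acacb, Acly and Fasn. From the other lists up to 5 genes past the threshold were eligible. Nsdhl and the genes named for an unadjusted p were chosen after their values were seen, as were Abca1 and Abcg1. Alternatives were quantile normalization, scaling to reads outside Rn45s, limma voom on recovered reads, a pseudocount of 0.25, other filters, a replicate block, robust spread, a term for the division of the libraries, and leaving out each library. Gene positions are from GENCODE on mm10 and promoters from RefSeq. Protein sequences were not used here.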

Additional observations from a re-analysis of the deposited data

How the results depend on the processing

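The number of lipid genes past the limma threshold was 1 with the settings of the report, voom on recovered reads, a pseudocount of 0.25 and a mean of at least 3. It was 2 with quantile normalization or robust spread (Elovl5 and Sc5d), 2 with scaling to reads outside Rn45s (Sc5d and Stard4), 4 with the division term (Ebp, Elovl5, Sc5d and Stard4), and 0 with no filter and with the replicate block. Leaving out 1 library gave 0 to 3. Over all genes the calls numbered 637, against 308 of 15930 with no filter, 1428 with the division term and 127 to 1243 without 1 library. The replicate block gave 0 lipid genes (Sc5d limma adjusted p = 0.123) and 102 genes in all. Same-numbered samples correlated at -0.08, -0.32 and -0.16 in their deviations from the group means. With so few samples, these values cannot tell whether same-numbered samples were prepared together. The sterol median was 0.093 with scaling to reads outside Rn45s and 0.084 to 0.15 without 1 library. The fatty acid median was -0.055 with a mean of at least 3 and -0.16 to 0.18 without 1 library. Reversals were Srebf1 at -0.068, Srebf2 at -0.057 and Acaca at 0.020 with the division term, Scap at -0.049 with scaling to reads outside Rn45s, and, without 1 library, Srebf1 from -0.11 to 0.52, Srebf2 from -0.0043 to 0.25, Scap from -0.089 to 0.17, Insig2 from -0.019 to 0.37 and Acaca from -0.23 to 0.21. The cause of these shifts was not tested. Over 18 named genes and 267 values, 236 kept direction and side of the threshold, and 13 genes had no reversal. Of these genes only Sc5d passed with the settings of the report, and it passed in 8 of 15 alternatives. The count therefore rests mainly on genes that stayed past no threshold. For genes without overlap, the direction could not change when 1 library was left out. The values of Idi1 and Lss rest on as few as 4 reads in a WT library.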
